A study of Rattus norvegicus with 2 samples.

Results

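Glutathione and antioxidant enzymes were followed in cultured cells of the rat carotid body, through the 15 of 1185 genes on the array whose deposited name contained glutathione, glutamate-cysteine ligase, gamma-glutamylcysteine, superoxide dismutase, catalase, peroxiredoxin or thioredoxin. They comprised 4 genes of glutathione synthesis and recycling, 6 glutathione transferases, 4 peroxidases and 1 superoxide dismutase. The carotid body is the small organ at the fork of the carotid artery that senses arterial oxygen. Cultures came from Sprague Dawley rats, with 16 carotid bodies pooled per culture. They were kept for 7 days at 21% oxygen (normoxia) or at 1% oxygen (chronic hypoxia), in medium with horse serum, fetal bovine serum and nerve growth factor, and no other agent set the groups apart. Amplified RNA was labelled with radioactive phosphorus and hybridised to nylon membranes spotted with gene fragments, 3 membranes per condition. The labels call the membranes replicates without saying whether each had its own culture, so p-values reflect only how far these membranes differ, and that variation can be technical.

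Glutathione is the main small thiol of the cell. Glutamate-cysteine ligase and glutathione synthetase build it from amino acids, and glutathione reductase returns the oxidised form to use. Transferases attach glutathione to foreign and lipid-derived compounds, peroxidases use it or thioredoxin to remove peroxides, and superoxide dismutase turns superoxide into hydrogen peroxide. Glomus cells, the chemoreceptor cells of the carotid body, release transmitters when oxygen falls, and reactive oxygen species are among the signals studied in that response.

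Intensity, the brightness of a spot, was at most 49803 for these genes, below the highest value of the array on every membrane. A spot counted as above background if its intensity lay over 3 spreads above that membrane's median, the spread being the root mean square distance of values under the median. The thresholds lay between 3261 and 6406 on 5 membranes and at 19280 on chronic hypoxia 3, whose lowest spot was 14591. In normoxia between 139 and 205 genes of a membrane were above background, against 165, 72 and 186 genes for chronic hypoxia 1, 2 and 3. Chronic hypoxia 2 and chronic hypoxia 3 thus stood apart, the former by its few bright spots and the latter by its high background. The low deposited values came in steps of about 52 on normoxia 1 and chronic hypoxia 1 and of about 103 on normoxia 2, normoxia 3 and chronic hypoxia 2. What set these steps is not given in the sources used here. The membranes of each step are called the first and the second step group, chronic hypoxia 3 was in neither, and differences within a step group are given as values with no test.

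Of 6 glomus cell markers, 4 (Slc6a3, Slc18a3, Dbh and Cpe) exceeded background on 3 membranes or more, and Ddc and Chga were on none. Of markers of other cells, 2 of 4 endothelial genes (Nos3 and Edn1) and Mmp2 of 2 fibroblast genes reached 3 membranes, and none of 2 glial and 1 immune genes did. The cultures can hold several cell types, and fewer cells of a type cannot be told apart from less RNA per cell.

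All 4 genes of glutathione synthesis and recycling gave signal on some membranes, as did 2 of 4 peroxidases and 1 of 6 transferases, while the superoxide dismutase did not. Of the 15 genes, 7 were above background on at least 1 membrane and 5 on at least 3, against 318 and 152 of all 1185 genes. These 5 were Gclc, Gclm, Gss, Gsr and Gpx3. On single membranes 5 of the 15 were above background on each of the normoxia membranes and on chronic hypoxia 1, 6 on chronic hypoxia 3, and Gss alone on chronic hypoxia 2.

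**Figure D1:**
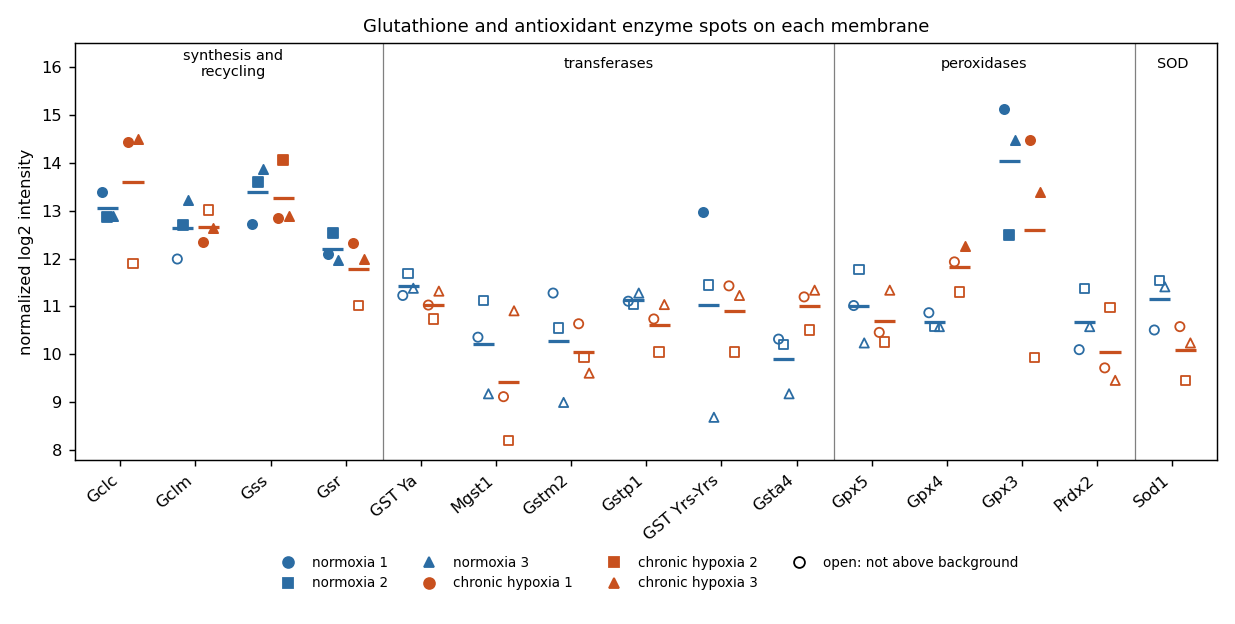
Normalized log2 intensity of the 15 enzymes, ordered by role, with a point for each of 3 normoxia (blue) and 3 chronic hypoxia (orange) membranes and a line for each group mean. Filled points were above background; Gss was filled on all 6 membranes, and 8 of the 15 enzymes had no filled point.

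No enzyme passed the test between chronic hypoxia and normoxia. In limma, fitted over 1038 genes, 0 of the 15 had a Benjamini-Hochberg adjusted p under 0.05, and the share of all tested genes that passed was 0.0%. At an unadjusted p under 0.05 there were again 0 of 15, against 75 of 1038 tested genes (7.23%). Means on the normalized log2 scale were higher in chronic hypoxia for 4 of the 15 enzymes and lower for 11, with a median difference of -0.32. Over all tested genes 51.8% were higher and 48.2% lower, and the median difference was 0.03. The membranes did not overlap between the conditions for 2 of the 15 enzymes (Gpx4 and Gsta4, both higher in chronic hypoxia), against 13.9% of all tested genes in either direction 6.45% for higher in chronic hypoxia and 7.42% for lower. A share of 2 in 15 is near that first background. With 3 membranes against 3, the two-sided exact permutation test of a single gene cannot give a p under 0.1. The median difference of the enzymes was -0.05 without normoxia 2 and -0.15 without chronic hypoxia 2, and 8 of the 15 spots behind these counts were at background on every membrane.

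**Figure D2:**
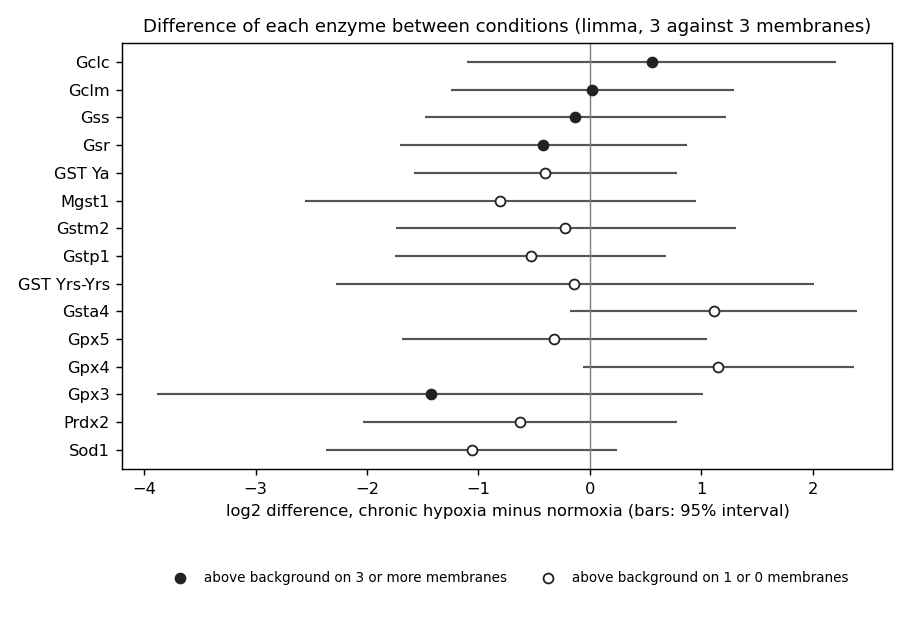
Difference of each enzyme between conditions on the normalized log2 scale, chronic hypoxia minus normoxia, with its 95% interval from limma. Every interval includes 0; the points lie between -1.43 (Gpx3) and 1.15 (Gpx4).

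Glutamate-cysteine ligase, which catalyses the first and rate-limiting step of glutathione synthesis, is built from a catalytic subunit (Gclc) and a regulatory subunit (Gclm). Gclc intensity was 12389, 7542 and 15943 on normoxia 1, 2 and 3 and 23875, 4954 and 42851 on chronic hypoxia 1, 2 and 3. Gclc was thus brightest on chronic hypoxia 1 and 3 and dimmest on chronic hypoxia 2, where it was not above background, so the groups overlapped. Between 84.9% and 97.3% of all spots on a membrane were dimmer than Gclc. The Gclc mean in normoxia was 13.05 ± 0.30 and that in chronic hypoxia 13.60 ± 1.49 (SD, n = 3 for each) on the normalized log2 scale. The Gclc difference was 0.56 with an SE of 0.75, a 1.47-fold higher mean in chronic hypoxia (limma adjusted p = 0.863, exact permutation p = 0.4). Without chronic hypoxia 2 the Gclc mean was 2.83-fold higher (limma adjusted p = 0.362), and the log2 difference was 0.16 without chronic hypoxia 1 and 0.15 without chronic hypoxia 3. Within the first step group Gclc differed by 1.03, within the second by -0.99, and with the step group as a block by -0.12.

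The regulatory subunit, which raises the affinity of the catalytic subunit for glutamate, had another pattern over the membranes. Gclm intensity was 4550, 7230 and 19374 in normoxia and 4244, 5994 and 23931 in chronic hypoxia, in the same order of membranes. Gclm lay just under the threshold of 4561 on normoxia 1 and under that of 6406 on chronic hypoxia 2, and was above background on the other 4 membranes. The Gclm mean in normoxia was 12.64 ± 0.62 and that in chronic hypoxia 12.66 ± 0.34 (SD, n = 3 for each). The Gclm difference was 0.02 with an SE of 0.57 and a 95% interval from -1.25 to 1.29 (limma adjusted p = 1.000), so a change of up to 2-fold either way lies inside the interval. Gclm changed sign under 3 of the scalings tried, with -0.45 without normalization between membranes, where the median of all tested genes was -0.17, -0.23 with 75th percentile scaling and -0.08 with cyclic loess. Within the step groups Gclm differed by 0.36 and 0.05.

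Glutathione synthetase (Gss) carries out the second step of synthesis by adding glycine. Gss intensity was 8127, 11794 and 29829 in normoxia and 6526, 8582 and 25547 in chronic hypoxia. It was the only enzyme of the 15 above background on all 6 membranes, with 91.4% to 96.2% of spots dimmer than it. The Gss mean in normoxia was 13.39 ± 0.60 and that in chronic hypoxia 13.26 ± 0.69 (SD, n = 3 for each), so that Gss differed by -0.13 (SE 0.61, limma adjusted p = 0.971). The difference of Gss was 0.09 without normoxia 3 and 0.07 without chronic hypoxia 1 or 3, and -0.56 without chronic hypoxia 2. Within the step groups Gss differed by 0.13 and 0.33.

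Glutathione reductase (Gsr) had intensities of 4809, 6927 and 8061 in normoxia and 4192, 3930 and 20107 in chronic hypoxia. Gsr stood close to the thresholds and fell under the threshold on chronic hypoxia 2 alone. The Gsr mean in normoxia was 12.20 ± 0.31 and that in chronic hypoxia 11.78 ± 0.68 (SD, n = 3 for each), so that Gsr differed by -0.42 (SE 0.58, limma adjusted p = 0.863). Without chronic hypoxia 2 the Gsr difference was -0.04, against 0.22 and -1.23 inside the first and second step group. Over the synthesis and recycling group 2 of 4 genes were higher and 2 lower in chronic hypoxia, with a median difference of -0.05. With a membrane left out, between 1 and 3 of the 4 were higher, and the median ran from -0.37 without normoxia 1 to 0.19 without normoxia 3.

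The start regions of the 3 synthesis genes and of Gpx3 are shown, as enzymes of a pathway with known response elements. With Gsr, which is not shown here, they were the enzymes above background on 3 or more membranes. The windows run from 250 bases before to 50 bases after the start site in RefSeq build GRCr8, read 5′ to 3′ on the gene's strand. They were searched on both strands for TGACNNNGC, the core of the antioxidant response element, and for ACGTG and GCGTG, the core of the hypoxia response element, and matches are in capitals. None of the matches shown overlapped another. Gclc lies on the forward strand at chr8:87510226-87510525, Gclm on the forward strand at chr2:213031885-213032184, Gss on the reverse strand at chr3:164538257-164538556 and Gpx3 on the forward strand at chr10:39529085-39529384.
Gclc: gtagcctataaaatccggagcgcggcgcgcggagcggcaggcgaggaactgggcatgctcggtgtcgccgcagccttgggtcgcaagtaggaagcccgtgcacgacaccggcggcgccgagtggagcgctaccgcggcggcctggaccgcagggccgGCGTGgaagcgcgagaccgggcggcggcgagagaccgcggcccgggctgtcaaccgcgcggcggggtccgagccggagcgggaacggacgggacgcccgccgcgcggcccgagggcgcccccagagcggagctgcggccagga
Gclm: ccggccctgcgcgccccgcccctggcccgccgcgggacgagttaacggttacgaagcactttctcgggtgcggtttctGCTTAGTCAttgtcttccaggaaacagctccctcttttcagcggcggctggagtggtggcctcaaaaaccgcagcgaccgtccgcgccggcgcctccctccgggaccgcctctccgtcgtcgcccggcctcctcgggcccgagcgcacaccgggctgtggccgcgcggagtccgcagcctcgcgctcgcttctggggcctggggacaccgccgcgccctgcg
Gss: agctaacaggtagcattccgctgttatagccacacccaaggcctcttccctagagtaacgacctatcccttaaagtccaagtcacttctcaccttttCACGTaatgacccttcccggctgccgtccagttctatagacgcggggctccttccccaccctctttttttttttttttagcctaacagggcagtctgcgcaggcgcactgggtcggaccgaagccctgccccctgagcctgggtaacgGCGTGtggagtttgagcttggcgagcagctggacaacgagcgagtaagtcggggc
Gpx3: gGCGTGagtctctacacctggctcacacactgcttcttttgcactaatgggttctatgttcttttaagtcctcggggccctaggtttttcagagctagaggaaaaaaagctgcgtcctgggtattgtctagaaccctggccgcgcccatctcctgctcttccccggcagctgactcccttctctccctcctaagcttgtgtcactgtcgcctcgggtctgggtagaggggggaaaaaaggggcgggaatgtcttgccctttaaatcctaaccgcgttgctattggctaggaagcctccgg

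In these windows Gclm had the antioxidant response core, on the reverse strand and Gclc, Gss and Gpx3 had none. GCGTG occurred in Gclc, Gss and Gpx3, and ACGTG in Gss on the reverse strand. Of all 33469 RefSeq windows of this length, 12.1% held TGACNNNGC, 19.3% ACGTG and 29.7% GCGTG. Of the 15 enzymes 13 could be given a current symbol and 12 of these had a window. In that set TGACNNNGC occurred in 2 (Gclm and Gstp1), ACGTG in 2 (Gss and Sod1) and GCGTG in 8. A match is a description of letters, and the membranes hold no measurement of factor binding.

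The 4 synthesis and recycling genes lay in a bright stretch of the array. The files give each spot a position code of a letter, a number and a second letter, and 14 spots shared the first letter and number (C09) of these 4 genes. Over the 6 membranes 83.3% of the values of this block were above background, against a median of 5.36% over the 84 blocks with at least 10 spots. It ranked as number 2, next to C10 with 95.2% and C11 with 82.1%, and these 3 blocks held 40 of the 152 genes with signal above background on 3 or more membranes. By membrane, 10, 13 and 13 of the 14 spots were above background in normoxia and 13, 7 and 14 in chronic hypoxia. Of the other 11 enzymes 9 lay in block A14 (8.33% above background) and 2 in block B01 (5.95%).

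The spots from Gclm to a sulfotransferase, 4 consecutive codes, had the same order of membranes by intensity within each condition, and so did acyl-CoA oxidase, the last spot of the block and no neighbour of them. The membrane medians had this order in chronic hypoxia (1704, 3409 and 16411) but not in normoxia (2427, 3409 and 2681). The block medians had it in normoxia (7744, 9774 and 19276) but not in chronic hypoxia (6761, 6250 and 25195). Among the spots of the block outside these 4 codes, only acyl-CoA oxidase had this order in both conditions. The cause of the shared order was not tested. Gss was followed by arginase 2, whose intensity was 7926, 13455 and 31908 in normoxia and 6526, 8916 and 27171 in chronic hypoxia, close to Gss on each membrane. The next code, a sulfotransferase of dopa and tyrosine, had 10466, 18656 and 34771 in normoxia and 4607, 10333 and 23143 in chronic hypoxia. Gclc was preceded by arginase 1, with 56381, 7227 and 53590 in normoxia and 4551, 5057 and 20719 in chronic hypoxia. Arginase 1 was close to Gclc on normoxia 2 and chronic hypoxia 2 and far from it on the other membranes. The code after Gclc, Cpt2, had 3931, 4848 and 4751 in normoxia and 3260, 4954 and 21255 in chronic hypoxia. On chronic hypoxia 2 Cpt2 and Gclc were both at 4954, and on the other membranes Cpt2 was dimmer than Gclc. Whether consecutive codes lie side by side on the nylon is not given in the sources used here. The part of neighbouring spots in the signal of Gclc, Gclm, Gss and Gsr was not tested.

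Relative to the median of the other spots of the block, the 4 genes no longer stood out together. Gss lay 0.07, 0.40 and 0.65 above that median in normoxia and -0.04, 1.05 and 0.07 from it in chronic hypoxia, on the log2 scale. Gsr lay under it on all 6 membranes, between -2.27 and -0.56. Gclm lay under it on 5 of 6, with 0.03 on normoxia 3 as the exception. Gclc lay 0.73, -0.62 and -0.35 from the block median in normoxia and 1.57, -1.41 and 1.68 in chronic hypoxia. On that scale the difference between conditions was 0.69 for Gclc, 0.13 for Gclm, -0.01 for Gss and -0.30 for Gsr, and limma adjusted p-values lay between 0.794 and 0.995. This correction was chosen after the data were seen.

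**Figure D3:**
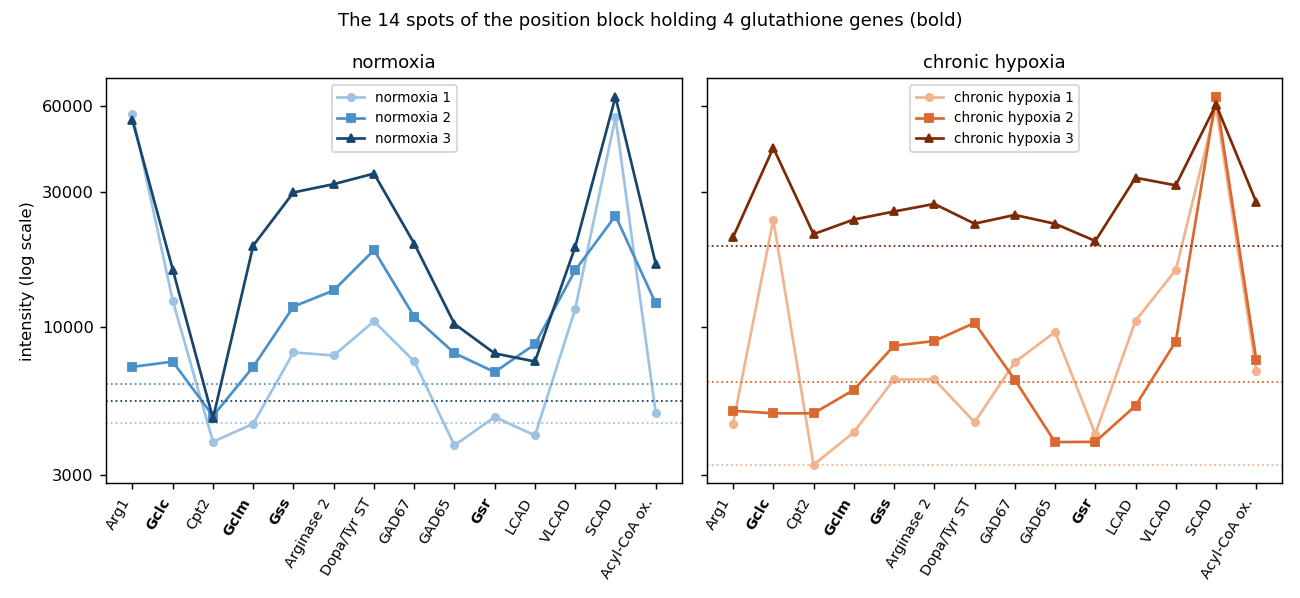
Intensity, on a log axis, of the 14 consecutive spots of position block C09 on the 3 normoxia (left) and 3 chronic hypoxia (right) membranes, with each membrane's background threshold as a dotted line. The lines join different genes in order of position code and show that values from Gclm to the sulfotransferase climb together on normoxia 2 and 3 and on chronic hypoxia 2.

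Among the peroxidases, plasma glutathione peroxidase (Gpx3), a secreted selenoprotein that reduces hydrogen peroxide and organic peroxides, was the brightest of the 4 on 5 of 6 membranes. Gpx3 intensity was 46820, 6924 and 49803 on normoxia 1, 2 and 3 and 25223, 2887 and 30979 on chronic hypoxia 1, 2 and 3. It was above background on all normoxia membranes and on chronic hypoxia 1 and 3, and on chronic hypoxia 2 only 30.0% of spots were dimmer. The groups overlapped, since chronic hypoxia 1 and 3 lay above normoxia 2. The Gpx3 mean in normoxia was 14.03 ± 1.36 and that in chronic hypoxia 12.59 ± 2.37 (SD, n = 3 for each). The Gpx3 difference was -1.43 with an SE of 1.10, a 2.70-fold lower mean in chronic hypoxia with a 95% interval from -3.88 to 1.01 (limma adjusted p = 0.764, exact permutation p = 0.6).

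The Gpx3 difference turned on single membranes. It was -0.01 without chronic hypoxia 2, -2.27 without normoxia 2 and -2.35 without chronic hypoxia 1. Within the first step group Gpx3 differed by -0.63 and within the second by -3.55, the latter against chronic hypoxia 2, where Gpx3 was at background. With the step group as a block the difference was -2.30 (limma adjusted p = 0.791). Gpx3 lay above the median of the other spots of its position block on every membrane. Its log2 values were 5.27, 1.83 and 4.51 above that median in normoxia and 4.48, 0.42 and 3.01 above it in chronic hypoxia. The Gpx3 difference relative to that median was -1.23 with an SE of 1.02. Its block, B01, was dim (5.95% of values above background, against 83.3% in C09), so these distances cannot be set beside those of the synthesis genes.

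**Figure D4:**
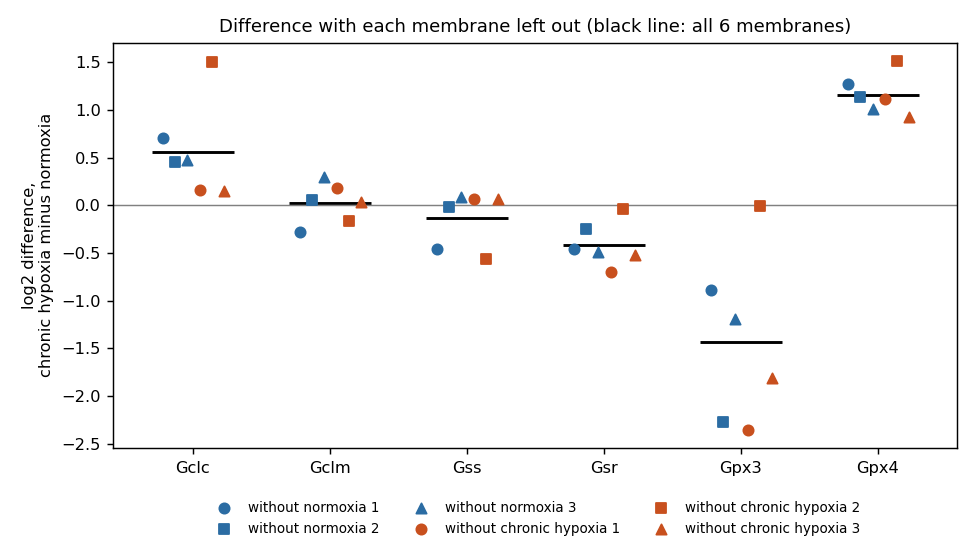
Difference on the normalized log2 scale, chronic hypoxia minus normoxia, for 6 enzymes with all 6 membranes (black line) and with each membrane left out in turn (points). Leaving out chronic hypoxia 2 raises Gclc above 0.56 and moves Gpx3 from -1.43 to -0.01, while Gpx4 stays between 0.92 and 1.51.

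Phospholipid hydroperoxide glutathione peroxidase (Gpx4), which reduces lipid peroxides within membranes, had intensities of 2789, 3509 and 2781 in normoxia and 3201, 4327 and 21403 in chronic hypoxia. Relative to each membrane's median the chronic hypoxia spots were all higher, by 2.88, 0.92 and 5.22 background spreads against 0.51, 0.10 and 0.11 in normoxia. Gpx4 was above background on chronic hypoxia 3 alone, and just under the threshold of 3261 on chronic hypoxia 1. The Gpx4 mean in normoxia was 10.68 ± 0.17 and that in chronic hypoxia 11.83 ± 0.49 (SD, n = 3 for each), and the groups did not overlap. The Gpx4 difference was 1.15 with an SE of 0.55 (limma unadjusted p = 0.0598, limma adjusted p = 0.645, exact permutation p = 0.1). No fold is given for Gpx4, because normoxia gave only background and the bound on the fold was under 1. It was higher in chronic hypoxia in the main analysis and in each of 15 other fits, from 0.68 to 1.51, with 0.362 as the lowest limma adjusted p, and within the step groups it differed by 1.05 and 0.73.

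Of the 4 peroxidases, 2 were not above background. Epididymal secretory glutathione peroxidase (Gpx5), a form known from the epididymis, and thioredoxin peroxidase 1 (Prdx2), a cytosolic peroxidase that draws on thioredoxin, stayed under the threshold on every membrane. Their differences were -0.32 with an SE of 0.62 and -0.63 with an SE of 0.64 (limma adjusted p = 0.916 and 0.832). Copper-zinc superoxide dismutase (Sod1), the cytosolic enzyme that removes superoxide, had intensities of 2427, 5063 and 4445 in normoxia and 1752, 2475 and 16047 in chronic hypoxia. None of these Sod1 values was above background, and those of chronic hypoxia 2 and 3 lay under the membrane median. The Sod1 difference was -1.06 with an SE of 0.59 (limma adjusted p = 0.645), with 0.06 and -2.01 within the step groups, and no fold is given.

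Of the 6 glutathione transferases, 5 were above background on no membrane. These were the alpha class Ya subunit, Gsta4, the mu class Gstm2, the pi class Gstp1 and the microsomal enzyme Mgst1. The sixth, the Yrs-Yrs transferase, had an intensity of 10008 on normoxia 1, above background, and 4954 and 1442 on normoxia 2 and 3. Its chronic hypoxia intensities of 2631, 2991 and 17563 were all at background, and its normoxia values spread over 2.17 log2 units (SD, n = 3). Among the 6 transferases 1 had a higher mean in chronic hypoxia and 5 a lower one, with a median difference of -0.31 and limma adjusted p-values from 0.645 to 0.991. This count turned on single membranes. Without normoxia 1, Gstm2 (0.26), Yrs-Yrs (0.83) and Gsta4 (1.32) were higher, 3 of the 5 then tested. It was 2 of 5 without normoxia 2 or chronic hypoxia 3 and 2 of 6 without chronic hypoxia 2. Transferases of a class share much of their sequence, and signal from related transcripts on a spot cannot be told apart.

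Gsta4, which acts on the lipid aldehyde hydroxynonenal, had the higher mean in chronic hypoxia. Gsta4 intensity was 2271, 3100 and 1648 in normoxia and 2274, 3406 and 17855 in chronic hypoxia. The normoxia spots all lay below their membrane's median, and those of chronic hypoxia 1 and 3 above it. Its mean in normoxia was 9.90 ± 0.63 and that in chronic hypoxia 11.02 ± 0.45 (SD, n = 3 for each), with no overlap of the groups. The Gsta4 difference was 1.11 with an SE of 0.58 (limma adjusted p = 0.645), with 0.88 and 0.81 within the step groups. All 6 Gsta4 values were at background, so no fold is given, and Gsta4 is described singly because its groups did not overlap.

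Over the 8 enzymes at background throughout, which were the 5 transferases, Gpx5, Prdx2 and Sod1, intensities ran from 2116 to 3307 on normoxia 1, from 3100 to 5469 on normoxia 2 and from 1545 to 4445 on normoxia 3. In chronic hypoxia they ran from 1083 to 2274, from 1651 to 3924 and from 15459 to 17855. Their levels were not detectable on these membranes, and their means were higher in chronic hypoxia for 1 and lower for 7. With normoxia 1, normoxia 2 or chronic hypoxia 3 left out, 2 of the 7 then tested were higher. A further 2 transferase spots with misspelt names (subunit 5 of the theta class and subunit 13) were not matched by the name search. They too were above background on no membrane and differed by -0.61 with an SE of 0.93 and by 0.50 with an SE of 0.83.

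Related genes of oxidant defence and conjugation were read from the same fit. The list held 8 rows, 7 of them tested, with 3 higher and 4 lower in chronic hypoxia, a median difference of -0.11 and 0 that passed (lowest limma adjusted p = 0.816). Without Hprt1, which entered through the word xanthine in its name, 3 were higher and 3 lower, with a median of -0.05. Ceruloplasmin (Cp), a copper ferroxidase, was above background on all 6 membranes at 7252, 13883 and 18556 in normoxia and 13634, 8173 and 29327 in chronic hypoxia. The groups overlapped, and the Cp difference was 0.39 with an SE of 0.59. Cp and the sulfotransferase of dopa and tyrosine, which differed by -0.73 with an SE of 0.71, both lay in the bright blocks. A sulfotransferase of alcohols and 3 multidrug resistance transporters were above background on no membrane.

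The authors' deposited table, with 1 normalized value per condition, gave a value above 0 to 7 of the 15 enzymes, against 324 of all 1185 genes. Under both conditions it did so for 1 enzyme, under normoxia only for 4 and under chronic hypoxia only for 2. Over all genes the authors' deposited table had 132 genes under both, 71 under normoxia only and 121 under chronic hypoxia only. In the authors' deposited table Gpx3 was 24996 for normoxia and 27305 for chronic hypoxia, a ratio of 1.09, while the membranes gave a lower mean in chronic hypoxia. The authors' deposited table listed Gclc at 0 in normoxia and 14939 in chronic hypoxia, although Gclc was above background here on all 3 normoxia membranes. The authors' deposited table gave Gss 14251 for normoxia and 0 for chronic hypoxia, against 3 of 3 membranes above background in each condition. Gclm at 4281, Gsr at 1781 and the Yrs-Yrs transferase at 2989 were likewise listed in normoxia alone in the authors' deposited table. The authors' deposited table listed Sod1 at 0 in normoxia and 2822 in chronic hypoxia, where no membrane was above background. The membranes gave Sod1 a lower mean in chronic hypoxia, with a difference of -1.06. How the background level behind that table was set is not given in the sources used here.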

How the data were processed

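The 6 deposited membrane files hold 1 intensity per gene from phosphorimager scans, with no step between membranes recorded; background is included, as their lowest values show. The authors' averaged table holds 1 intensity per gene and condition, averaged over 3 membranes and normalized with AtlasImage by a coefficient built on genes above background, per the series' design text. Arrays have no depth, so the number of membranes limits the precision.

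Membrane intensities were background corrected (normexp, offset 50), put on a log2 scale and quantile normalized (limma 3.58.1, R 4.3.3). Differences of dim genes depend on the background correction. Without it the median difference of the enzymes was -0.23, against -0.32 with it. Whether folds of dim genes are too small or too large was not tested. Genes brighter than the 25th percentile of a membrane on 3 or more of the 6 (1038) entered lmFit and eBayes with group as the only term, two-sided, with Benjamini-Hochberg adjustment and a threshold of 0.05. The fit was run on simulated data with less noise between membranes than most of the enzymes showed. That run checks the code and does not measure the power of the test on these membranes. Single genes were tested by exact permutation over the 20 assignments of membranes. The step groups were read from the values, not from labels.

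Enzymes above background on at least 1 membrane are given with every membrane's value. The others are given by range and count, and by name where their unadjusted p was under 0.05, which none was; Gsta4, Sod1, Gpx5 and Prdx2 were described singly after their values were seen. The enzymes, lists, tests and alternatives were chosen with earlier results of these data known. Symbols were assigned by hand from the deposited names, 13 of 15 with a RefSeq (GRCr8) symbol. Figures used matplotlib 3.10.9 in Python 3.11.15. The values of 1 related gene are not reported here.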

Additional observations from a re-analysis of the deposited data

How the results depend on the processing

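With 16 alternative fits, limma called 0 genes and 0 of the enzymes in each (unadjusted p under 0.05 for 42 to 105 genes, and 10 in the fit of 152 detected genes), and the lowest adjusted p over genes was 0.051, without normalization. The count of enzymes higher in chronic hypoxia, 4 of 15, became 2 of 5 among genes above background on at least 3 membranes and 7 of 15 within the first step group. Their median difference became -0.74 within the second step group, and lay between -0.49 and -0.05 with a membrane left out. Enzymes above background on at least 1 membrane numbered 7 to 9 with other thresholds.

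Signs turned for Gclm (-0.45 without normalization, -0.08 with cyclic loess, -0.23 with 75th percentile scaling, -0.28 to 0.30 with a membrane left out) and Gss (0.07 with chronic hypoxia 1 and 3 averaged, 0.24 with the step group as a block, 0.13 and 0.33 within the step groups, -0.56 to 0.09 with a membrane left out). They also turned for Gclc (-0.12 with the step group block, -0.99 within the second group), Gsr (0.22 within the first) and Gpx3 (0.13 on the log2 scale in the authors' deposited table). Of the transferases, Gstm2 turned without normoxia 1 (0.26) and chronic hypoxia 3 (0.03) and within the second step group (0.15). Yrs-Yrs turned without normoxia 1 (0.83), normoxia 2 (0.02) and chronic hypoxia 2 (0.24). Gpx5 turned without normoxia 2 (0.06), Prdx2 within the second step group (0.01) and Sod1 within the first (0.06). The cause was not tested.

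The membrane number as a replicate block left 0 genes and 0 enzymes called, with Gpx3 at -1.43 (SE 0.63, limma adjusted p = 0.590). Deviations of same-numbered membranes correlated by 0.0912, 0.114 and 0.0235, and those of differently numbered membranes by -0.119 to 0.0325. These weak values do not settle whether the numbers mark pairs, and the main fit left the numbers out. With 8 of 15 enzymes at background, most levels lie below what these membranes could show.
The correction to the median of the position block was chosen after seeing the data and turned no call.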
